A study of Caenorhabditis elegans with 6 samples.

Results

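The tubulins described here are 9 alpha and beta tubulin genes of Caenorhabditis elegans, chosen by name from a table of 46739 features, and all 9 were in the table and passed the filter on low values. They are the beta tubulin genes tbb-6, tbb-1, tbb-2, tbb-4 and mec-7 and the alpha tubulin genes tba-1, tba-2, tba-4 and mec-12. The gene tbb-6 was included because of its high level in these same rab-11.1 RNAi libraries, so its values are a description and no test is given for it. The other 8 were taken as members of the family. Wild-type worms of the N2 strain were fed bacteria through their whole development at 20 °C, on plates with IPTG and carbenicillin, and polyadenylated RNA of whole L4 larvae was sequenced. The bacteria (HT115) carried either an RNA interference (RNAi) clone against rab-11.1, which encodes a small GTPase of recycling endosomes, or the empty vector as control. Each group had 3 libraries, labelled biological replicates 1 to 3. The labels do not give the number of worms behind a library, and RNAi by feeding lowers a transcript without removing the gene.

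Microtubules are hollow polymers of heterodimers of alpha and beta tubulin, and the worm carries several genes for each subunit. The genes tba-1, tba-2, tbb-1 and tbb-2 are known as the broadly used isotypes, which also build the spindles of the germ line and the embryo. The pair mec-12 and mec-7 builds the special microtubules of the touch receptor neurons, and tbb-4 is known from ciliated sensory neurons. In contrast, tbb-6 is known as a gene of low basal level that is switched on when mitochondrial respiration is disturbed, through the p38-type kinase PMK-3.

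Levels are given as RPKM, reads per kilobase of transcript length, scaled by library depth, as the authors deposited them. This unit is per length, so levels can be compared between genes. The depth recovered from the steps between the values was, in reads, 22946375 to 25107994 after rab-11.1 RNAi and 27190567 to 30183162 with empty vector. In 1 library the target gene went against its label. The gene rab-11.1 stood at 151.3, 137.8 and 632.6 RPKM in replicates 1, 2 and 3 of rab-11.1 RNAi, against 411.1, 398.2 and 409.5 RPKM in the empty vector replicates. The library labelled replicate 3 of rab-11.1 RNAi therefore had a higher rab-11.1 value than any empty vector library. Whether that value counts worm transcript alone, includes reads of the RNAi clone, or comes from a wrong label was not tested, so it may not be a transcript level. The log2 fold change of rab-11.1 was -0.78 (limma adjusted p = 0.415), and -1.49 without that library (adjusted p = 0.0056). Calls that ended without it are named beside the results. In both groups replicate 2 stood away from replicates 1 and 3 on the first and second principal components (65.3% and 19.1% of the variance). On the first, replicates 1, 2 and 3 of rab-11.1 RNAi lay at -17.3, -50.5 and -11.4. The empty vector replicates lay at 39.1, 6.38 and 33.7, so this component held both the group difference and a replicate difference. Of the 5 body wall muscle, 5 epidermal, 5 intestinal, 7 neuronal, 11 germ line, 6 touch neuron and 12 ciliated neuron marker genes found in the table, none was at 0 in all 6 libraries. In RNA of whole worms, fewer cells of a type and less RNA per cell cannot be told apart.

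The level of tbb-6 was far apart between the groups. The gene (WBGene00006539, WBcel235 chromosome V, 12261531 to 12263368, plus strand, protein coding, 5 exons) stood at 180.6, 389.6 and 157 RPKM in replicates 1, 2 and 3 of rab-11.1 RNAi, against 4.39, 4.97 and 4.50 RPKM in the empty vector replicates. All 3 rab-11.1 RNAi libraries lay above all 3 empty vector libraries, and replicate 2 was the highest of both groups. The reads behind these levels numbered 5751, 12625 and 5473 after rab-11.1 RNAi, against 184, 207 and 170 with empty vector. The ratio of the mean levels was 52.4, and the 3 rab-11.1 RNAi libraries were 39.1, 84.3 and 34 times the empty vector mean. The empty vector libraries thus differed by little (SD 0.307 RPKM, n = 3), and the rab-11.1 RNAi libraries by much (SD 128 RPKM, n = 3). On the scale log2(RPKM + 1) the difference was 5.32, the largest increase among 13833 features tested. By the ratio of mean RPKM it ranked 4 among the tested features whose empty vector mean was above 0. Among the tested features, tbb-6 ranked 653, 323 and 750 by level in the rab-11.1 RNAi libraries, against 10127, 9401 and 10044 in the empty vector libraries.

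Across the 3 RNAi libraries, tbb-6 was highest where the rab-11.1 value was lowest, in replicate 2, at 33.9% of the empty vector mean. Replicate 1, with rab-11.1 at 37.2% of that mean, held 180.6 RPKM of tbb-6. The library labelled replicate 3 of rab-11.1 RNAi, with rab-11.1 at 155.7% of that mean, had the lowest tbb-6 of the group, yet its 157 RPKM was over all empty vector libraries. These are 3 libraries, the rab-11.1 value of replicate 3 may not be a transcript level, and no relation was computed. Replicate 2 was also the highest in tbb-6 with empty vector, at 4.97 RPKM, where rab-11.1 was not targeted. On leaving out the library labelled replicate 3, the log2 difference of tbb-6 was 5.57, and without rab-11.1 RNAi replicate 2 it was 4.91.

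**Figure D1:**
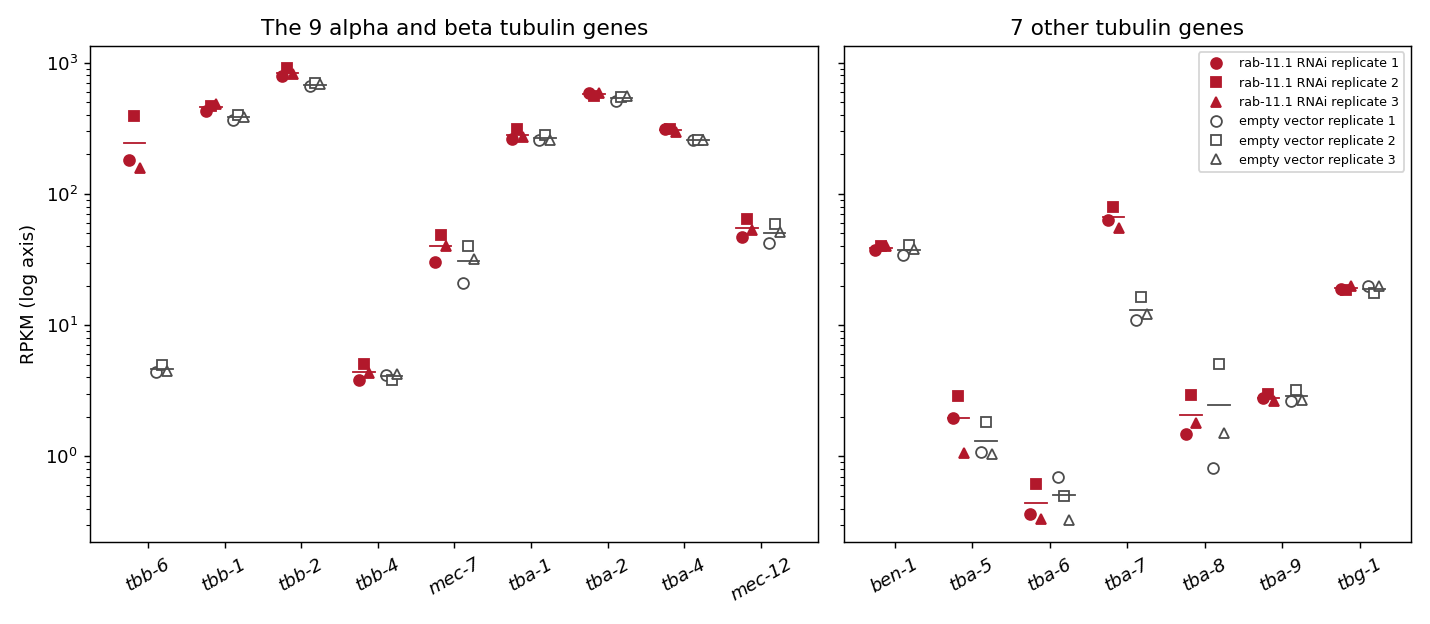
RPKM on a log axis of the 9 tubulin genes (left) and of 7 other tubulin genes (right), with filled symbols for the 3 rab-11.1 RNAi libraries, open symbols for the 3 empty vector libraries, 1 symbol shape per replicate number and a bar at each group mean. The symbols of tbb-6 and tba-7 lie far apart between the groups, at 157 to 389.6 RPKM after rab-11.1 RNAi and 4.39 to 4.97 RPKM with empty vector for tbb-6, and at 55.4 to 80.1 RPKM after rab-11.1 RNAi and 10.9 to 16.3 RPKM with empty vector for tba-7.

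A further tubulin gene outside the 9, the alpha tubulin tba-7, rose after rab-11.1 RNAi. It belongs to a list of 7 other tubulin genes (ben-1, tba-5, tba-6, tba-7, tba-8, tba-9 and tbg-1), of which 6 were tested. By limma 1 rose, 0 fell and the remaining 5 missed the threshold, beside 7.93% higher and 1.07% lower among all features. The gene tba-7 (WBGene00006533, chromosome III, 11368351 to 11371788, minus strand, 5 exons) stood at 63.2, 80.1 and 55.4 RPKM in replicates 1, 2 and 3 of rab-11.1 RNAi, against 10.9, 16.3 and 12.1 RPKM in the empty vector replicates. The groups did not overlap, and replicate 2 was the highest library of each group. Its mean was 66.2 ± 12.6 RPKM after rab-11.1 RNAi and 13.1 ± 2.85 RPKM with empty vector (SD, n = 3 each), a 5.05-fold increase. By limma the log2 fold change was 2.26 (SE 0.18, 95% interval 1.82 to 2.69, adjusted p = 0.0021). The call held in all 15 alternative settings (adjusted p = 0.00021 to 0.019), one of which left out the library labelled replicate 3 of rab-11.1 RNAi. By log2 fold change tba-7 ranked 56 among 13833 features. Its exons share 85 bases with T28D6.3 on the opposite strand, and whether reads were counted by strand is not given. T28D6.3 stood at 60.8, 54 and 50.3 RPKM in the rab-11.1 RNAi libraries, against 40.3, 43.4 and 41.7 RPKM in the empty vector libraries. Its part in the increase of tba-7 was not tested.

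None of the other 8 tubulins passed the threshold. At an adjusted p of 0.05, limma called 7.93% of all features tested as higher after rab-11.1 RNAi and 1.07% as lower. Because the tubulins were chosen with this contrast known, nothing is read from their count against that share. Their log2 fold changes ran from 0.08 for tba-1 to 0.38 for mec-7, with a median of 0.18, whereas the median of all features tested was 0.09. In 4 of the 8 (tbb-1, tbb-2, tba-2 and tba-4) the 3 rab-11.1 RNAi libraries lay above the 3 empty vector libraries, as they did for 27.4% of all features. The level of all genes depends on the scaling: with median-of-ratios factors the median of all features moved by -0.11 to -0.02, and the median of the 8 tubulins to 0.05. The share of calls that were higher was then 66.0%, against 88.1% without that scaling. Under that scaling tba-1, tba-2, tbb-4 and mec-12 stood at -0.044, -0.030, -0.018 and -0.014, so no direction can be given for these 4.

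Among the broadly used beta tubulins, tbb-2 (WBGene00006537, chromosome III, 4015910 to 4017627, minus strand, 4 exons) had the highest level of the family. It stood at 787.9, 903.4 and 825.1 RPKM in the rab-11.1 RNAi libraries, against 665.1, 697.9 and 682.4 RPKM in the empty vector libraries. The groups did not overlap. The mean was 839 ± 59 RPKM after rab-11.1 RNAi and 682 ± 16.4 RPKM with empty vector (SD, n = 3 each), with a log2 fold change of 0.30 (SE 0.08, 95% interval 0.12 to 0.48) that did not pass by limma (adjusted p = 0.061). With the replicate number as a block it passed (adjusted p = 0.032), as did 16.5% of all features in the higher direction, and leaving out the library labelled replicate 3 of rab-11.1 RNAi gave a limma adjusted p of 0.123 with no block. In the blocked fit of replicates 1 and 2 alone tbb-2 did not pass (adjusted p = 0.157).

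The gene tbb-1 (WBGene00006536, chromosome III, 10740868 to 10742432, minus strand, 3 exons) stood at 427, 468.7 and 480.2 RPKM in the rab-11.1 RNAi libraries, against 366.4, 402.2 and 388.9 RPKM in the empty vector libraries. Here too the groups did not overlap, and the lowest rab-11.1 RNAi library was 24.8 RPKM above the highest empty vector library. The log2 fold change was 0.25 (SE 0.08, 95% interval 0.06 to 0.43, limma adjusted p = 0.102). The ratio of tbb-2 to tbb-1 was 1.83 ± 0.105 after rab-11.1 RNAi and 1.77 ± 0.0417 with empty vector (SD, n = 3 each), and the ranges of this ratio in the 2 groups overlapped.

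Of the broadly used alpha tubulins, tba-2 (WBGene00006529, chromosome I, 12964674 to 12966795, minus strand, 4 exons) was the most abundant, at 583, 559.9 and 587.2 RPKM in the rab-11.1 RNAi libraries, against 512.8, 546.5 and 556.3 RPKM in the empty vector libraries. The groups were separated by 3.55 RPKM, less than the spread within either. Its log2 fold change was 0.10 (95% interval -0.06 to 0.26, limma adjusted p = 0.41), which is 0.957-fold to 1.2-fold.

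The gene tba-1 (WBGene00006528, chromosome I, 9785781 to 9787624, minus strand, 4 exons) stood at 263.7, 312 and 272.6 RPKM in the rab-11.1 RNAi libraries, against 256.4, 283.3 and 259 RPKM in the empty vector libraries. The groups overlapped, with replicate 2 the highest of each (log2 fold change 0.08, 95% interval -0.13 to 0.30, limma adjusted p = 0.606). The gene tba-4 (WBGene00006530, chromosome II, 10918706 to 10920211, plus strand, 3 exons), an alpha tubulin of wide expression, stood at 310.9, 311.2 and 294.5 RPKM in the rab-11.1 RNAi libraries, against 258.9, 256.4 and 259.5 RPKM in the empty vector libraries. Its groups did not overlap and its empty vector libraries lay within 3.1 RPKM of each other. The log2 fold change of tba-4 was 0.24 (SE 0.07, 95% interval 0.09 to 0.40), which did not pass by limma (adjusted p = 0.068), nor in any of the 15 alternatives (adjusted p = 0.059 to 0.369).

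These isotypes are also known from the germ line, whose 11 marker genes summed to 316 to 531 RPKM in the rab-11.1 RNAi libraries and to 408 to 686 RPKM in the empty vector libraries. None of the 11 was called by limma, beside 7.93% higher and 1.07% lower among all features. With the replicate block 8 were called lower, as were 4.47% of all features, and 1 in the blocked fit of replicates 1 and 2 alone. All 5 body wall muscle markers lay lower in every rab-11.1 RNAi library than in any empty vector library, as did 6.53% of all features, and none of the 5 was called by limma. With the block 1 of them, unc-54, was called lower (adjusted p = 0.038). The gene unc-54 was also called lower under median-of-ratios scaling (adjusted p = 0.038), but not in the blocked fit of replicates 1 and 2 alone (adjusted p = 0.128). Of the 5 intestinal markers, vha-6 was called lower by limma (log2 fold change -0.50, adjusted p = 0.037), beside 1.07% of all features. That call also held under median-of-ratios scaling (adjusted p = 0.025). It ended in 8 of 15 alternatives, among them the blocked fit of replicates 1 and 2 alone. The other 4 intestinal and the 5 epidermal markers were not called by limma, and the intestinal elt-2 was called higher with the block (adjusted p = 0.031). The part of these marker differences in the tubulin levels was not tested.

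The touch neuron tubulins mec-7 and mec-12 were lower in level than the broadly used isotypes. The beta tubulin mec-7 (WBGene00003171, chromosome X, 7774856 to 7776689, minus strand, 5 exons) stood at 30.3, 49.1 and 40.4 RPKM in replicates 1, 2 and 3 of rab-11.1 RNAi, against 20.9, 39.7 and 31.8 RPKM in the empty vector replicates. The groups overlapped, but within each replicate number the rab-11.1 RNAi library was the higher. Its log2 fold change was 0.38 (SE 0.26, 95% interval -0.23 to 1.00, limma adjusted p = 0.399). With the replicate number as a block the same difference had an SE of 0.07 and passed (adjusted p = 0.022), and with the block but without both replicate 3 libraries it did not pass (adjusted p = 0.10).

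The alpha tubulin mec-12 (WBGene00003175, chromosome III, 3131574 to 3139234, minus strand, 5 exons) showed the same order of replicates. It stood at 46.6, 64.7 and 52.7 RPKM in replicates 1, 2 and 3 of rab-11.1 RNAi, against 42, 58.5 and 50.9 RPKM in the empty vector replicates. The groups overlapped, with a log2 fold change of 0.11 (95% interval -0.27 to 0.49, limma adjusted p = 0.699; with the block adjusted p = 0.266). Its exons share 76 bases with Y53G8B.1 on the opposite strand, which stood at 11.4 RPKM or less in every library. The 6 touch receptor neuron markers (mec-2, mec-3, mec-4, mec-10, mec-18 and unc-86) summed to 14.5 to 20 RPKM in the rab-11.1 RNAi libraries and 10.3 to 15.6 RPKM in the empty vector libraries. Of the 5 tested, none was called by limma, with a median log2 fold change of 0.28, and 7 general neuron markers summed to 272 to 394 RPKM in the rab-11.1 RNAi libraries and 193 to 214 RPKM in the empty vector libraries, with 1 of the 7 (snb-1) called higher (limma adjusted p = 0.039). That call ended in 9 of 15 alternatives, among them median-of-ratios scaling (adjusted p = 0.078) and the fit leaving out the library labelled replicate 3 of rab-11.1 RNAi (adjusted p = 0.058). The part of either marker list in the values of mec-7 and mec-12 was not tested.

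The beta tubulin tbb-4 (WBGene00006538, chromosome X, 9434452 to 9436893, minus strand, 7 exons) was near the low end of the family, at 3.85, 5.04 and 4.35 RPKM in the rab-11.1 RNAi libraries, against 4.19, 3.81 and 4.23 RPKM in the empty vector libraries. The groups overlapped, and the interval of its log2 fold change ran from -0.26 to 0.43 (limma adjusted p = 0.745). Its reads numbered 138, 184 and 171 after rab-11.1 RNAi, against 198, 179 and 180 with empty vector. With empty vector, tbb-4 and tbb-6 were thus close in level, at means of 4.08 and 4.62 RPKM, while after rab-11.1 RNAi their means were 4.41 and 242 RPKM. Of the 12 ciliated neuron markers 3 passed the filter and none was called, beside 7.93% higher and 1.07% lower among all features. All 12 summed to 10.3 to 13 RPKM in the rab-11.1 RNAi libraries and 9.37 to 10.2 RPKM in the empty vector libraries.

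**Figure D2:**
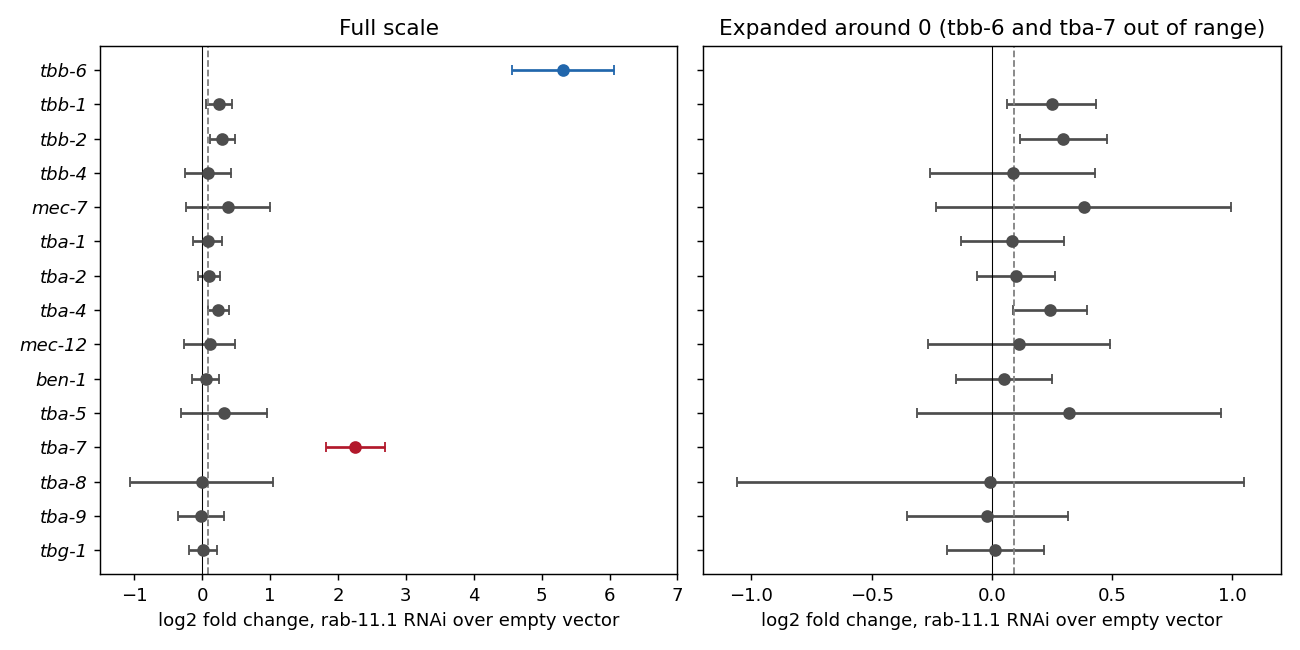
Log2 fold change of each tested tubulin gene, rab-11.1 RNAi over empty vector on the scale log2(RPKM + 1), with 95% intervals from limma, on the full scale (left) and expanded around 0 (right). The dashed line marks the median of all features tested (0.09). Among the genes other than tbb-6, for which no call is read, only tba-7 (red) was called. The value of tbb-6 (blue) at 5.32 is a description, with its interval drawn for scale and no test read from it. The other genes lie between -0.02 and 0.38.

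Of the remaining tubulins, ben-1, the beta tubulin through which benzimidazole drugs act on the worm, averaged 39 ± 1.72 RPKM after rab-11.1 RNAi and 37.7 ± 3 RPKM with empty vector (SD, n = 3 each; log2 fold change 0.05, 95% interval -0.15 to 0.25, limma adjusted p = 0.742). The gamma tubulin tbg-1, which nucleates microtubules, averaged 19.2 RPKM after rab-11.1 RNAi and 19 RPKM with empty vector (limma adjusted p = 0.935). The genes tba-5, tba-8 and tba-9 had means (RPKM) of 1.96, 2.06 and 2.80 after rab-11.1 RNAi and of 1.32, 2.45 and 2.86 RPKM with empty vector, and none passed. The gene tba-6 was below the filter, at 0.615 RPKM or less after rab-11.1 RNAi and 0.694 RPKM or less with empty vector, and was not tested. Its exons and those of tba-5 also overlap genes on the opposite strand.

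Ordered by mean level with empty vector, the 15 alpha and beta genes ran tbb-2, tba-2, tbb-1, tba-1, tba-4, mec-12, ben-1, mec-7, tba-7, tbb-6, tbb-4, tba-9, tba-8, tba-5 and tba-6. The library ranges overlapped between the neighbours tba-1 and tba-4, ben-1 and mec-7, tba-9 and tba-8, and tba-8 and tba-5. After rab-11.1 RNAi, tba-4 stood before tba-1 and mec-7 before ben-1, with overlapping ranges in both pairs. The gene tbb-6 ranked 6 of 15 after rab-11.1 RNAi and 10 with empty vector. Its rab-11.1 RNAi libraries overlapped those of tba-1. The gene tba-7 ranked 7 after rab-11.1 RNAi and 9 with empty vector. After rab-11.1 RNAi the neighbours tba-7, mec-12, mec-7 and ben-1 overlapped each in turn, as did tba-9, tba-8 and tba-5.

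The makeup of the summed tubulin RPKM differed accordingly. The 6 beta tubulin genes summed to 1467, 1856 and 1547 RPKM in the rab-11.1 RNAi libraries, against 1096, 1189 and 1150 RPKM in the empty vector libraries. Of this sum tbb-6 held 12.3%, 21% and 10.2% in the rab-11.1 RNAi libraries, against 0.401%, 0.418% and 0.392% in the empty vector libraries. Without tbb-6 the beta sum was 1381 ± 90.6 RPKM after rab-11.1 RNAi and 1140 ± 46.7 RPKM with empty vector (SD, n = 3 each). The 9 alpha tubulin genes summed to 1293 ± 38.3 RPKM after rab-11.1 RNAi and 1134 ± 43.5 RPKM with empty vector (SD, n = 3 each), of which tba-7 held 5.11% ± 0.817 after rab-11.1 RNAi and 1.15% ± 0.211 with empty vector. The ratio of the beta sum to the alpha sum was 1.15, 1.39 and 1.22 in the rab-11.1 RNAi libraries, against 1.01, 1.02 and 1.01 in the empty vector libraries. The beta sums contain tbb-6, which was chosen for its level, so these values are given with no test.

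**Figure D3:**
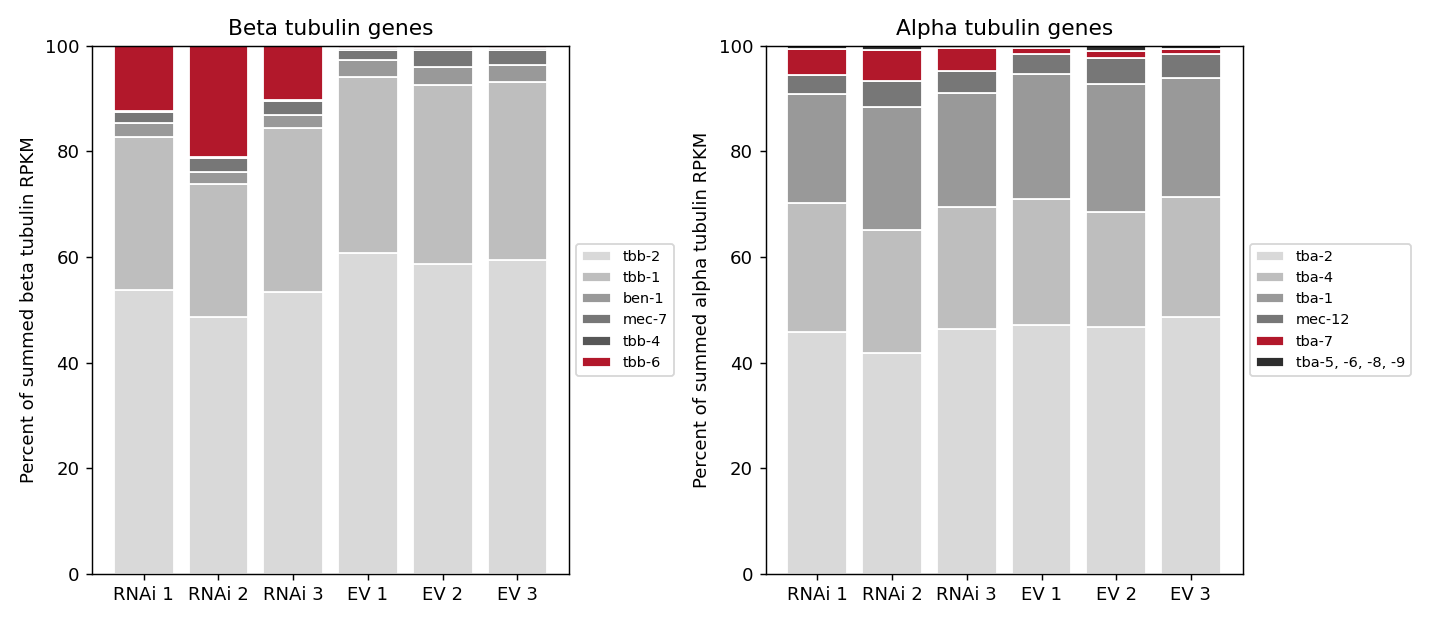
Percent of the summed beta tubulin RPKM (left, 6 genes) and of the summed alpha tubulin RPKM (right, 9 genes) held by each gene, 1 bar per library, rab-11.1 RNAi (RNAi) left of empty vector (EV). The red share of tbb-6 is 10.2% to 21% after rab-11.1 RNAi and 0.392% to 0.418% with empty vector, and the share of tba-7 is 4.37% to 5.99% after rab-11.1 RNAi and 1% to 1.39% with empty vector.

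The genes with the profile most like that of tbb-6 were found by the root mean square difference of log2(RPKM + 1), each centred on its own mean, over the 6 libraries. The nearest were Y41C4A.11 (0.34), Y37H2A.14 (0.36), C08E8.4 (0.46), T26H5.9 (0.70) and F57B9.3 (0.78). Their means in RPKM were 161, 306, 137, 50.9 and 23.7 after rab-11.1 RNAi and 3.88, 9.51, 4.82, 1.77 and 0.69 RPKM with empty vector. In all 5, as in tbb-6 and tba-7, the highest library was replicate 2 of rab-11.1 RNAi. The 5 were picked for their likeness to tbb-6 library by library, so their shared highest library is no separate result. The gene tba-7 ranked 54 by this measure (1.56). The profiles share the 6 libraries and the contrast between the groups, and the ranking is a description of them.

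**Figure D4:**
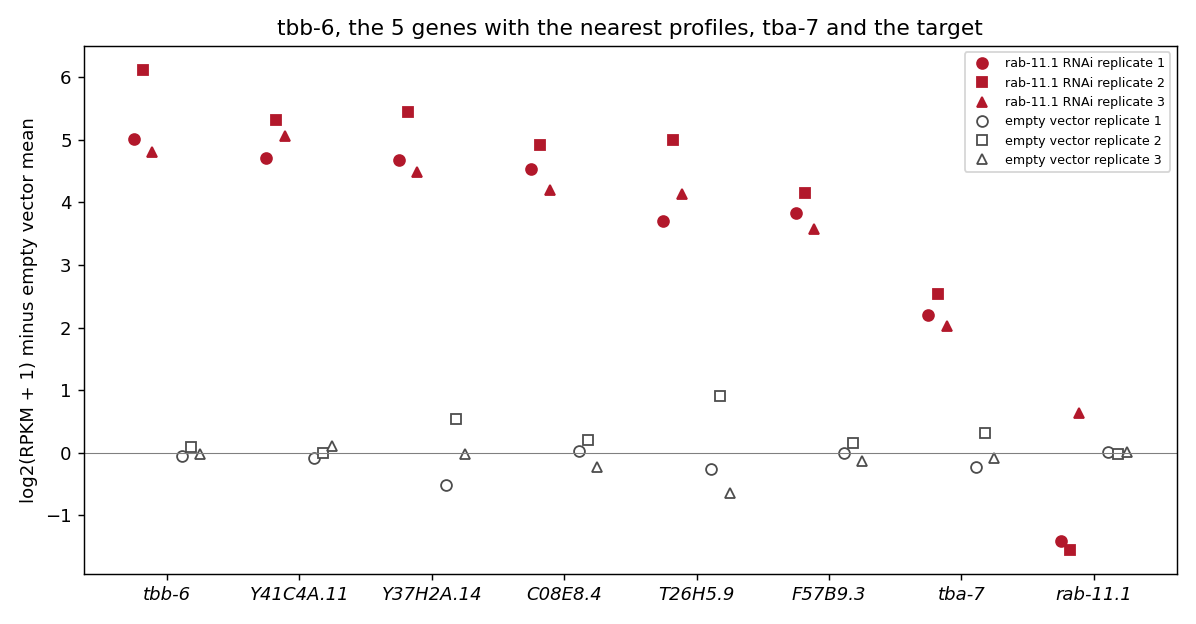
Log2(RPKM + 1) of each library minus the empty vector mean, for tbb-6, the 5 genes with the nearest profiles, tba-7 and the target rab-11.1, with filled symbols for rab-11.1 RNAi and open symbols for empty vector. Every gene but rab-11.1 lies above its empty vector libraries in all 3 rab-11.1 RNAi libraries, and rab-11.1 lies below them in replicates 1 and 2 and above them in the library labelled replicate 3.

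Genes of the kinase pathway through which tbb-6 is known to be controlled were read next. The list for the DLK-1 and PMK-3 pathway held 9 genes (rpm-1, fsn-1, dlk-1, mkk-4, sek-3, pmk-3, mak-2, uev-3 and cebp-1), all tested. By limma 3 rose, 0 fell and 6 missed the threshold, beside 7.93% higher and 1.07% lower among all features. The median log2 fold change was 0.50, against 0.09 for all features, and 0.39 under median-of-ratios scaling. Like the tubulins, this list and the other gene lists were chosen with earlier results of these data known. Nothing is therefore read from the count of calls in any list against the share of all features. The transcription factor gene cebp-1, a target and effector of the pathway in neurons, stood at 60, 76.7 and 57.2 RPKM in the rab-11.1 RNAi libraries, against 19.4, 32.3 and 22.9 RPKM with empty vector, and rose (log2 fold change 1.36, SE 0.20, limma adjusted p = 0.011). Its groups did not overlap, and among the 15 alternatives its call ended only without empty vector replicate 3 (limma adjusted p = 0.063).

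The kinase kinase gene sek-3 stood at 37.5, 40.6 and 33.2 RPKM in the rab-11.1 RNAi libraries, against 20.5, 23.9 and 18.6 RPKM with empty vector, and rose (log2 fold change 0.79, SE 0.12, limma adjusted p = 0.012). The p38 kinase gene pmk-3 stood at 24.9, 32.8 and 23.7 RPKM in the rab-11.1 RNAi libraries, against 16.9, 17.3 and 13.9 RPKM with empty vector, and rose (log2 fold change 0.71, SE 0.15, limma adjusted p = 0.032). In both genes the groups did not overlap. The call of sek-3 ended without empty vector replicate 1 or 3 or rab-11.1 RNAi replicate 1 (highest limma adjusted p = 0.059). That of pmk-3 ended in every fit that left out 1 library other than empty vector replicate 2 (highest limma adjusted p = 0.125), and under median-of-ratios scaling (adjusted p = 0.069). The gene dlk-1, for the kinase at the head of the pathway, stood at 34, 51.2 and 33.8 RPKM in the rab-11.1 RNAi libraries, against 20.4, 27.4 and 20.3 RPKM in the empty vector libraries, without overlap (log2 fold change 0.76, limma adjusted p = 0.057). The gene dlk-1 passed without empty vector replicate 2 (limma adjusted p = 0.047). With the replicate block dlk-1, mkk-4 and mak-2 also passed (adjusted p = 0.003, 0.025 and 0.014), as did 16.5% of all features in the higher direction. In the blocked fit of replicates 1 and 2 alone dlk-1 passed (adjusted p = 0.028), while mkk-4 and mak-2 did not (adjusted p = 0.119 and 0.086). In the limma fit of replicates 1 and 3 alone, with no block, dlk-1, mkk-4 and mak-2 passed (adjusted p = 0.0028, 0.043 and 0.023). That fit called 1652 of 13434 tested features higher.

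Tubulin must be folded and paired before it can polymerise, first by prefoldin and the CCT chaperonin and then by tubulin cofactors. Of the 14 CCT chaperonin and prefoldin genes, all tested, none rose and none fell by limma or with the replicate block (median log2 fold change -0.04). Among all features, 7.93% were called higher and 1.07% lower by limma, and 16.5% higher and 4.47% lower with the block. The most abundant, cct-5, stood at 265.7, 295 and 271.4 RPKM in the rab-11.1 RNAi libraries, against 276.9, 291.8 and 301.4 RPKM in the empty vector libraries. Of 7 tubulin cofactor genes tested, 2 rose, 0 fell and 5 missed the threshold, beside 7.93% called higher among all features (median 0.44, and 0.32 under median-of-ratios scaling). The gene tbca-1, for the cofactor that holds free beta tubulin, stood at 61.1, 92.9 and 60.1 RPKM in the rab-11.1 RNAi libraries, against 36.8, 32.5 and 33.4 RPKM with empty vector, and rose (log2 fold change 1.01, SE 0.17, limma adjusted p = 0.018). Its groups did not overlap, and replicate 2 was the highest of the rab-11.1 RNAi libraries. Its call ended without empty vector replicate 1 or 3 (highest limma adjusted p = 0.091) and in the blocked fit of replicates 1 and 2 alone. The gene tbcb-1, for a cofactor that binds alpha tubulin, stood at 41.6, 48 and 40.8 RPKM in the rab-11.1 RNAi libraries, against 32, 32.9 and 30.1 RPKM with empty vector, and rose (log2 fold change 0.44, SE 0.09, limma adjusted p = 0.030). That call ended under median-of-ratios scaling (adjusted p = 0.095) and in every fit that left out 1 library other than empty vector replicate 2 (highest adjusted p = 0.131).

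Of 8 tested genes for enzymes that modify tubulin, out of 11, none was called by limma (median 0.17), beside 7.93% higher and 1.07% lower among all features. The most abundant, the alpha tubulin acetyltransferase gene mec-17, averaged 44.2 ± 7.38 RPKM after rab-11.1 RNAi and 36.4 ± 4.14 RPKM with empty vector (SD, n = 3 each; limma adjusted p = 0.275). With the replicate block it passed, as did the second acetyltransferase gene atat-2 (adjusted p = 0.046 and 0.026), beside 16.5% of all features called higher with the block. Neither passed in the blocked fit of replicates 1 and 2 alone (adjusted p = 0.158 for mec-17 and 0.089 for atat-2), where 1 gene of the list, ttll-15, was called higher. In the fit of replicates 1 and 3 alone atat-2 passed (adjusted p = 0.044). Of 22 tested genes, out of 23, for nucleating, binding or severing microtubules, 2 rose and 0 fell (median 0.16), a share close to the 7.93% of all features called higher. The 2 were spas-1, for the severing enzyme spastin, and maph-1.1, for a microtubule-associated protein of the MAP1 family. The level of spas-1 was 17.1 ± 0.735 RPKM after rab-11.1 RNAi and 12.4 ± 0.598 RPKM with empty vector (SD, n = 3 each; limma adjusted p = 0.028), and that of maph-1.1 was 103.5 ± 16.6 RPKM after rab-11.1 RNAi and 67.5 ± 2.67 RPKM with empty vector (SD, n = 3 each; limma adjusted p = 0.028). The related genes maph-1.2 and maph-1.3 had log2 fold changes of -0.52 and -0.30, and neither passed by limma. The gene maph-1.2 passed with the block (adjusted p = 0.017) and in the fit of replicates 1 and 3 alone (adjusted p = 0.017), but not in the blocked fit of replicates 1 and 2 alone (adjusted p = 0.083). With the block gip-2 and cls-2 were also called higher (adjusted p = 0.046 and 0.044), and in that blocked fit of replicates 1 and 2 none of the 22 genes was. The calls of both spas-1 and maph-1.1 ended under median-of-ratios scaling (adjusted p = 0.072 and 0.070) and without any single empty vector library, at adjusted p values up to 0.117 and 0.125. That of spas-1 also ended on leaving out any 1 of the rab-11.1 RNAi libraries, and that of maph-1.1 on leaving out replicate 1 of rab-11.1 RNAi (adjusted p = 0.077).

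Motor proteins walk along microtubules, kinesins mostly to the plus end and dynein to the minus end. Of 22 tested motor genes, out of 23, by limma 6 rose, 0 fell and 16 missed the threshold, beside 7.93% higher and 1.07% lower among all features (median 0.10, and -0.03 under median-of-ratios scaling). Those with the smallest adjusted p were dnc-2 (dynamitin of dynactin), klc-2 (a kinesin light chain), unc-116 (the kinesin-1 heavy chain) and dhc-1 (the dynein heavy chain). Their log2 fold changes were 0.53, 0.51, 0.38 and 0.33 (limma adjusted p = 0.029, 0.030, 0.031 and 0.038), and in each the groups did not overlap. The most abundant of them, unc-116, stood at 163, 180.9 and 156.3 RPKM in the rab-11.1 RNAi libraries, against 130.2, 125.5 and 126.5 RPKM in the empty vector libraries. Neither under median-of-ratios scaling (adjusted p = 0.076 to 0.175) nor on leaving out replicate 1 or 3 of empty vector or replicate 1 of rab-11.1 RNAi did any of the 6 pass, and over all fits that left out 1 library at most 2 did. On leaving out the library labelled replicate 3 of rab-11.1 RNAi, dnc-2 alone passed. With the block the 6 and klp-11 (adjusted p = 0.040) passed, and in the blocked fit of replicates 1 and 2 alone dnc-2 did.

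**Figure D5:**
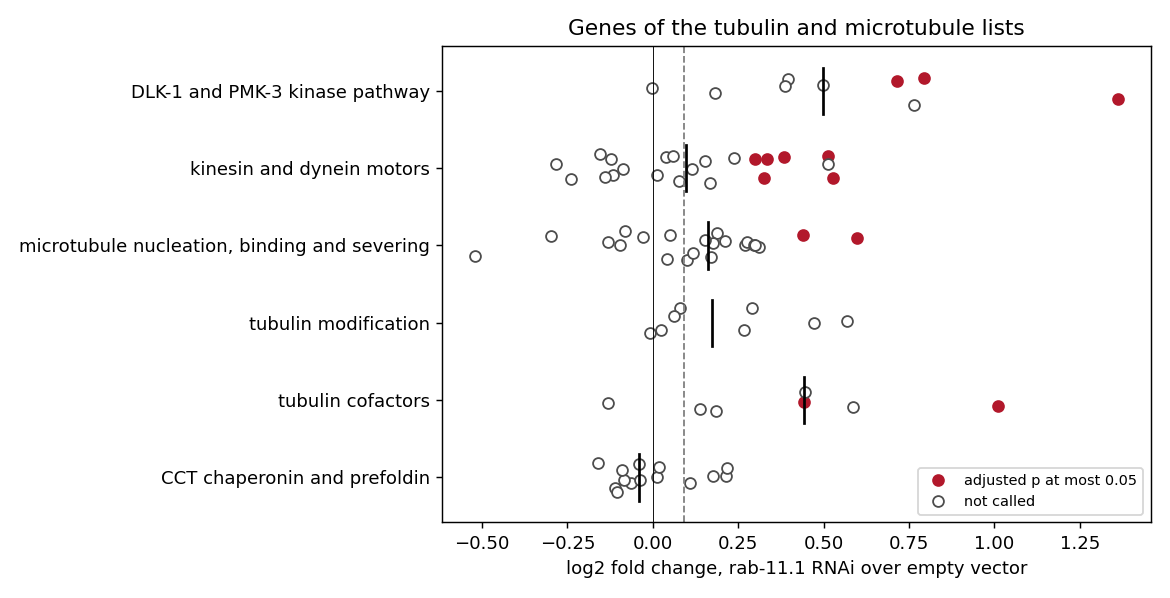
Log2 fold change, rab-11.1 RNAi over empty vector, of each tested gene in 6 lists of microtubule and kinase genes, filled where the adjusted p by limma was at most 0.05, with a black bar at the median of each list and a dashed line at the median of all features tested (0.09). The medians run from -0.04 for the chaperonin and prefoldin genes to 0.50 for the DLK-1 and PMK-3 pathway, and all filled points lie to the right of the dashed line.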

How the data were processed

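The authors deposited RPKM values per feature for 6 libraries of paired reads, per the file headers, and group means that equalled the mean of their 3 libraries. Per the submitters' processing notes, WBcel235 was the build. The aligner, counter, annotation release, use of the strand and treatment of reads shared by near-identical genes were not stated in any source at hand. Tubulin genes are close paralogues, so reads may be split among them, most of all between tba-1 and tba-2 and between tbb-1 and tbb-2.

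Columns were matched to samples by group and replicate number. Gene positions came from the Ensembl release 115 annotation of the same build. Depth was recovered as the commonest step of RPKM times annotated exon length. Whole reads (within 0.0001) at 1 length between 150 and 30000 bases were then found for 13831 of 13833 tested features. A floor of 3 reads on 1 kb was 0.0994 to 0.131 RPKM. Such limits cover counting error only.

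Features reaching 1 RPKM in 3 or more libraries entered limma 3.58.1 (R 4.3.3) as log2(RPKM + 1), using eBayes with trend and robust settings, two-sided, with Benjamini-Hochberg adjustment at 0.05 over all 13833. The procedure was run on simulated data with known changes, independent noise capped in size and no replicate structure. That run does not measure the error rates in these data. Folds are ratios of mean RPKM, and the log2 scale understates changes of low genes. An exact permutation test of 3 against 3 cannot go below 0.1 and was not used. P-values measure the spread between libraries that the labels call biological replicates.

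The tubulins and lists were chosen with earlier results of these data known. All tubulins were named, and of each list up to 4 called genes with the smallest adjusted p. Where none was called, the most abundant gene was named, except for the cell type markers. Genes passing only with the block or in another alternative were named after their values were seen. Same-numbered replicates had correlated deviations from the group means (0.40, 0.62 and 0.35 across genes) and were taken as pairs for the block. Replicate 3 of rab-11.1 RNAi also correlated with replicate 1 of empty vector (0.46), and replicate 1 of rab-11.1 RNAi with replicate 3 of empty vector (0.18). Deviations from a mean of 3 sum to 0, and replicate 2 stood apart in both groups. The values for replicates 1 and 3 are thus no separate evidence for pairing them by number. Alternatives were other pseudocounts (0.1 and 5), no filter, median-of-ratios scaling, no trend, the block, each library left out, and 2 added after seeing the data, limma-voom on recovered reads and both replicate 2 libraries left out.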

Additional observations from a re-analysis of the deposited data

How the results depend on the processing

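Over all features, 1097 were called higher and 148 lower. These counts were 552 and 284 under median-of-ratios scaling, 2288 and 618 with the replicate block, 1652 and 467 with both replicate 2 libraries left out, and 264 to 938 and 20 to 125 with 1 library left out. The lower calls were 97 with no filter and 88 without the trend. Of the 8 tubulins other than tbb-6, 0 were called by limma (3 had an unadjusted p under 0.05) and 0 by limma-voom (also 3), with any 1 library left out and in the other settings but the replicate block, where 2 were: tbb-2 at 0.30 and mec-7 at 0.38. The log2 difference of tbb-6 was 4.57 with a pseudocount of 5, and 4.91 to 5.57 with 1 library left out. Signs turned under median-of-ratios scaling for tbb-4 (-0.018), tba-1 (-0.044), tba-2 (-0.030) and mec-12 (-0.014), with both replicate 2 libraries left out for tbb-4 (-0.034), and with 1 library left out for mec-12 (-0.014 to 0.22). The cause was not tested. With 1 library left out the log2 fold changes of the other tubulins ran from 0.21 to 0.30 for tbb-1, 0.24 to 0.34 for tbb-2, 0.14 to 0.58 for mec-7 and 0.23 to 0.27 for tba-4. The depth limits the genes at a few RPKM most, such as tbb-4.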
